A study of Caenorhabditis elegans with 7 samples.

Results

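Serpentine chemoreceptor genes of the Sra and Srg superfamilies and of the solo families were examined in starved first-stage (L1) larvae of Caenorhabditis elegans whose parents had been fed under dietary restriction (DR) or ad libitum (AL). Members were the genes of the authors' DR against AL comparison whose symbol carries one of 14 family names: sra, srab, srb and sre (Sra superfamily), srg, srt, sru, srv, srx and srxa (Srg superfamily), and srw, srz, srbc and srsx (solo families). This gave 137 genes of the 13436 in that comparison, 31 in the Sra superfamily, 58 in the Srg superfamily and 48 in the solo families. The authors had kept genes with a CPM (count scaled to library size) above 1 in 3 libraries, so a member had to reach that level. Of the other family genes, srbc-53 and srbc-54 reached it without being listed in that comparison. Of 897 family genes named in the annotation, 784 were seen with 1 read or more and 265 had enough counts for the gene test, all 137 members among them.

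All larvae were of the wild-type strain N2, in both groups. DR parents grew on the bacterium HB101 at 3.1 and AL parents at 25, in S-complete liquid for 96 hr with 100 µL of culture per embryo. The unit is mg per mL in the deposited notes, but the labels write mL per mL for DR parents. Embryos were freed by bleaching and kept for 24 hr in S-basal, a buffer without food, so the larvae of both groups hatched and starved alike. There were 4 libraries of DR progeny (A to D) and 3 of AL progeny (A to C), each of polyadenylated RNA from whole larvae and described by the submitters as biological replicates.

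Nematodes read their chemical surroundings through a small set of ciliated neurons in the head and tail, and C. elegans devotes an unusually large share of its genes to the G protein-coupled receptors these neurons display. The families have grown by local gene duplication, and most of the receptors have no known ligand. Among the few with a known role are receptors for ascarosides, the pheromones by which larvae sense crowding and decide between growth and dauer arrest. A receptor gene is often active in a single pair of neurons, so its RNA is dilute in a preparation of whole larvae, in which fewer expressing cells and less RNA per cell cannot be told apart.

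Feature totals lay between 16626117 and 20874237 counts in DR libraries and between 16805120 and 22952310 in AL libraries, and a count of 0 allows 0.144 to 0.180 CPM in DR and 0.131 to 0.179 CPM in AL libraries (3 counts of the library total, counting error only). Ribosomal RNA took 22.5% of the counts of DR D, compared with 11% to 12.2% for DR A, B and C, and 7.54% to 11.8% for AL libraries. Yolk protein RNA, made by adults and not by larvae, set DR C apart: vit-2 stood at 290.4 CPM there, compared with 37.2 to 44 CPM for DR A, B and D, and 41.2 to 57.9 CPM for AL libraries. The 23 pan-neuronal and 27 ciliated-neuron marker genes were all detected and tested. The names of the deposited count files fall under a pair of prefixes, BB1 (DR A, B and C, AL A) and BB2 (DR D, AL B and C). Of the 47 members named by rule, 31 had a log2 fold change of the same sign within both prefixes and 16 had opposite signs. Among the 31 were all 15 members with the smallest unadjusted p in the edgeR fit. These were picked from the same libraries, so the count of 31 leans on that choice. Values within the prefixes are given where a single gene's log2 fold change is printed with its error.

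Most members were weakly expressed. Their median was 1.44 CPM (scaled by TMM, a correction for RNA composition), against 11.5 CPM over the 14867 features tested, and 85 of the 137 lay below 2 CPM, 41 between 2 and 5 CPM and 11 above 5 CPM. A member had 202 counts over all 7 libraries at the median and 113 at the lowest. Relative to the length of their exons the median was 1.37 CPM per kilobase, and 12 members exceeded 5 CPM per kilobase. The srw gene srw-85 stood far above the rest.

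**Figure D1:**
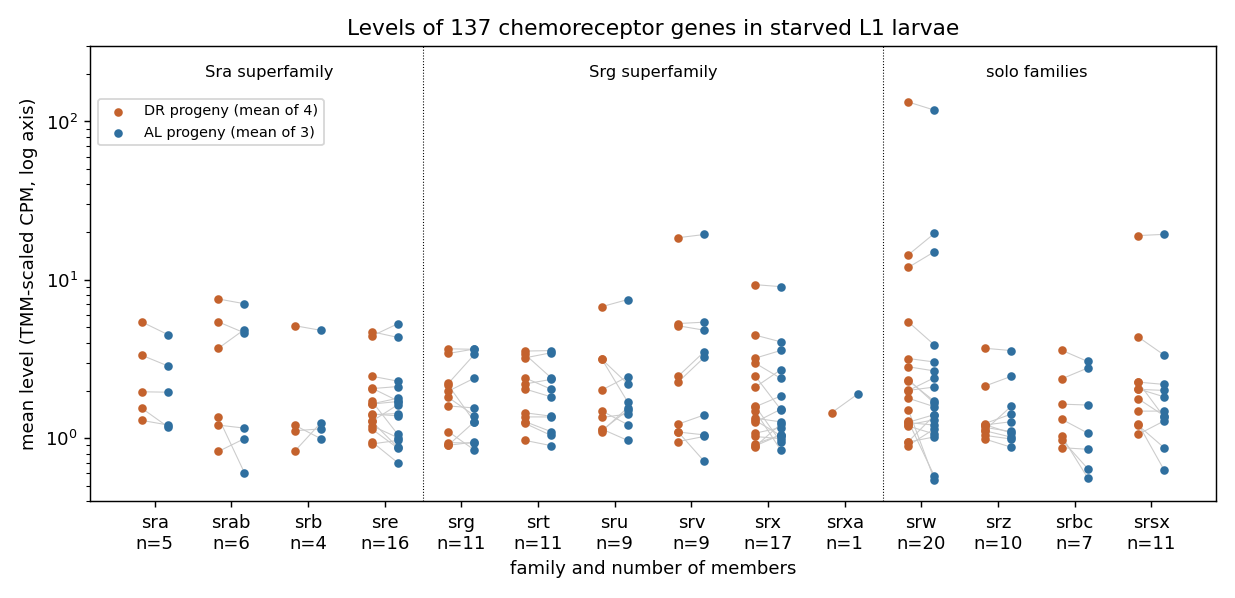
Mean level of each of the 137 members in DR progeny (left of each pair, mean of 4 libraries) and AL progeny (right, mean of 3), by family, in TMM-scaled CPM on a log axis; grey lines join the values of a gene. Most genes lie between 0.5 and 5 CPM in both groups, and srw-85 stands above 100 CPM.

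In DR libraries A to D, srw-85 (C25F9.1, chromosome V) had 152, 141, 118 and 120.4 CPM, against 109, 121 and 124 CPM in AL libraries A to C. The groups overlapped, with means of 133 ± 16.4 CPM in DR progeny (SD, n = 4) and 118 ± 7.98 CPM in AL progeny (SD, n = 3), and values given with ± below are such means and SDs unless marked SE. This single gene gave 27.3% of the summed CPM of the members, and the 10 most abundant gave 49.3%. Its mean of 88.8 CPM per kilobase was 3.19 times that of the next member on that scale, srw-86 at 27.9 CPM per kilobase. The family srw, whose proteins resemble neuropeptide receptors more than other chemoreceptors do, thus supplied both of the highest levels per length.

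Next in level came srv-1, at 13.9 CPM per kilobase and with 18.5 ± 1.92 CPM in DR and 19.3 ± 1.77 CPM in AL progeny. It was followed by srw-145 at 7.84, srx-45 at 7.30, sru-40 at 6.17, srab-14 at 5.78 and srsx-34 at 5.68 CPM per kilobase. The gene srsx-34 had the second highest CPM of all members, spread over exons of 3376 bases, the longest of the set. Groups overlapped for each of these 6 genes. The exons of srv-1, srx-45 and srab-14 overlap another gene on the opposite strand, spi-1 in the case of srab-14, and the libraries do not keep the strand.

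Summed over the members, expression came to 477, 484, 465 and 462 CPM in DR libraries A to D, against 452, 429 and 478 CPM in AL libraries A to C, so that AL C lay among the DR libraries. Without srw-85 the sums averaged 339 ± 9.77 CPM in DR and 335 ± 24.3 CPM in AL progeny. After centring each gene on its mean over libraries, the median of the members was 0.01, 0.04, 0.07 and 0.01 on the log2 scale in DR A to D, against 0.03, −0.15 and 0.08 in AL A to C. The low value belongs to AL B, which held the lowest of the 7 values for 47 members and the highest for 12. AL C, by contrast, was the highest for 30 members and the lowest for 10.

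**Figure D2:**
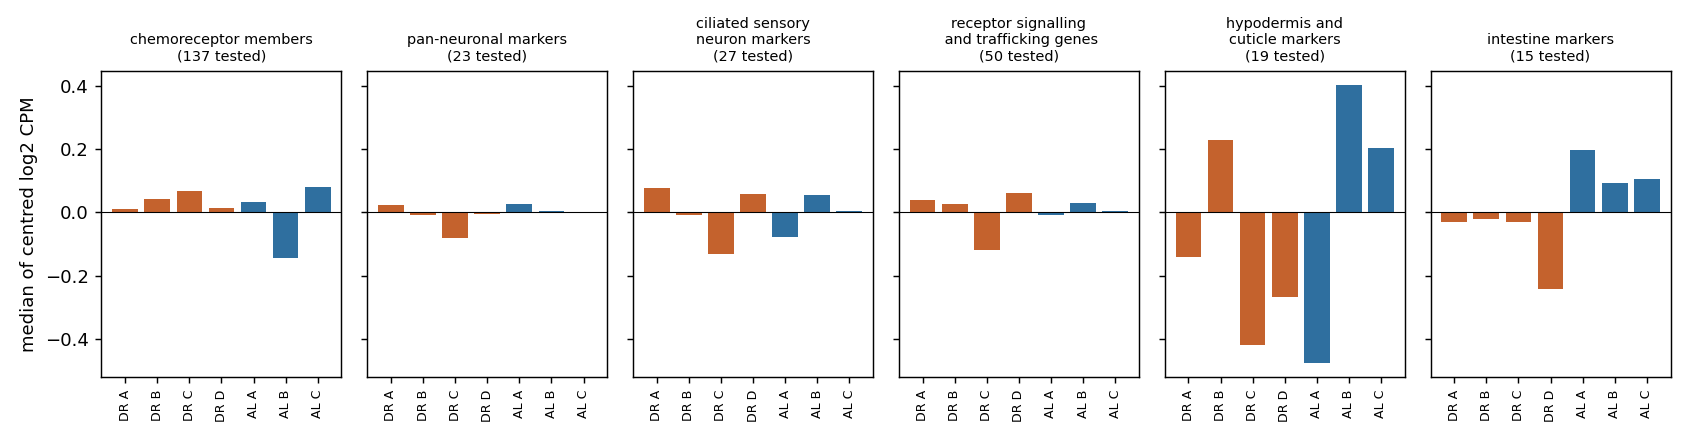
Median, over the tested genes of each list, of log2 CPM centred on the gene's mean, for each library (DR left, AL right). Chemoreceptor genes are lowest in AL B, at −0.15, whereas neuronal and ciliary markers are lowest in DR C and ciliary markers do not separate the groups.

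Markers of neurons did not follow this order. Pan-neuronal markers had a median of −0.08 in DR C and between −0.01 and 0.02 in DR A, B and D, against 0.00 to 0.03 in AL libraries. Ciliated-neuron markers ran from −0.13 in DR C to 0.08 in DR A, against −0.08 in AL A to 0.06 in AL B. The list of hypodermis and cuticle genes ranged from −0.42 to 0.23 in DR and from −0.48 to 0.40 in AL libraries, and AL B was its highest library. Intestine markers had less RNA in DR progeny for 11 of 15 tested genes, and their summed level was 8791 to 12741 CPM in DR and 13662 to 14728 CPM in AL libraries. Pharyngeal muscle markers, like the receptors, were lowest in AL B: their median ran from −0.11 to 0.15 in DR libraries, against −0.02, −0.32 and 0.01 in AL A to C, and 8 of 9 tested genes had more RNA in DR progeny. Germline and embryo markers had a summed level of 133 to 161 CPM in DR A, B and D and 824 CPM in DR C, against 161 to 195 CPM in AL libraries. The part that the makeup of the larvae has in the chemoreceptor values was not tested.

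Setting the 2 groups of progeny side by side addresses whether the parents' diet shows in the RNA of unfed offspring. No chemoreceptor gene passed the edgeR quasi-likelihood test at an adjusted p under 0.05, where 0.0135% of all features tested did, and the smallest adjusted p of a member was 0.372. At an unadjusted p under 0.05, 11 members were higher and 4 lower in DR progeny, 8.03% and 2.92% of them, beside 5.39% and 5.35% of all features tested. The share of higher members is not free of the level filter: by the authors' CPM, 4 of the 11 (srw-98, srw-131, srab-8 and srbc-33) exceeded 1 CPM in no AL library, 3 others did so in 1 or 2 AL libraries, and 4 exceeded it in all 7 libraries, as did the 4 lower members. With DESeq2 the unadjusted counts were 9 higher and 4 lower, beside 4.61% and 5.65% of all features. They were 9 and 2 with the edgeR exact test, beside 4.72% and 5.21%, and 8 and 6 with limma-voom, beside 4.9% and 5.62%. After adjustment none of the 3 called a member, the backgrounds being 0.108% higher and 0.168% lower for DESeq2 (0.276% in all), 0.0673% and 0.0942% for the exact test (0.161%) and 0% for limma-voom. The authors' deposited table lists no member at an FDR under 0.05 either, and its smallest FDR of a member was 0.141, for srw-131. Of all genes of the authors' deposited table, 0.0968% pass that FDR as higher and 0.186% as lower in DR progeny.

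As a group the receptors were close to the rest of the transcriptome. In DR progeny 79 members were higher and 58 lower than in AL progeny, that is 57.7% higher against 51.6% of all features tested. Their median log2 fold change (DR over AL) was 0.05, and that of all features was 0.01. Within the prefix BB1 the median was 0.00 and within BB2 0.11, where AL A and DR D are the lone libraries of their group. It was −0.05 without AL B, with 60 genes higher and 77 lower, 0.13 without AL C, 0.00 without DR C and −0.01 when DR C and DR D were both left out. The 128 tested genes of the same families that were not members, at a median of 0.603 CPM, had a median log2 fold change of 0.15, with 81 higher and 47 lower. The authors' filter could be met by 3 of 4 DR libraries but needed all 3 AL libraries if met in AL alone: 5 members exceeded 1 CPM in DR libraries only and 1 member in AL libraries only. Among the 65 members above 1 CPM in all 7 libraries the median was 0.04.

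**Figure D3:**
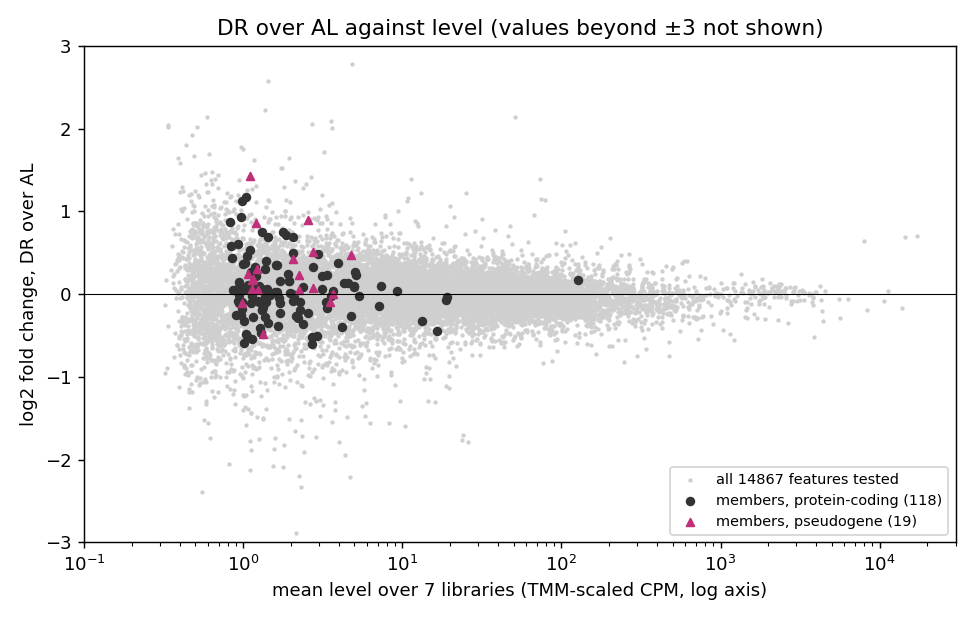
Log2 fold change (DR over AL) against mean level in TMM-scaled CPM (log axis), for all 14867 features tested (grey), the 118 protein-coding members (black circles) and the 19 members annotated as pseudogenes (magenta triangles). Members lie within the cloud of all features, and those past a 2-fold difference sit near 1 CPM.

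Groups did not overlap for 14 members, 9 higher and 5 lower in DR progeny. These are 6.57% and 3.65% of the members, where 5.97% and 5.88% of all features tested were higher or lower without overlap. Of the 14, 9 had a mean below 2 CPM, among them srv-32 (0.991 to 1.16 CPM in DR and 0.624 to 0.865 CPM in AL libraries) and srx-111 (0.767 to 0.968 CPM in DR and 1.00 to 1.44 CPM in AL libraries). Both lie at the edge of the level filter, where the third highest CPM of the authors was 1.02 for srv-32 and 1.01 for srx-111, against 0.962 for srx-107 and 0.958 for sru-47, which just missed it. The counts without overlap are not free of this filter. Of the 9 higher members, srw-98, srw-131 and srab-8 exceeded 1 CPM in no AL library by the authors' CPM. On the TMM scale srv-32 stayed below 1 CPM in every AL library and srx-111 in every DR library. Genes let in through 1 group alone tend to have separated groups. The features tested met another filter, so their shares are not a like background.

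**Figure D4:**
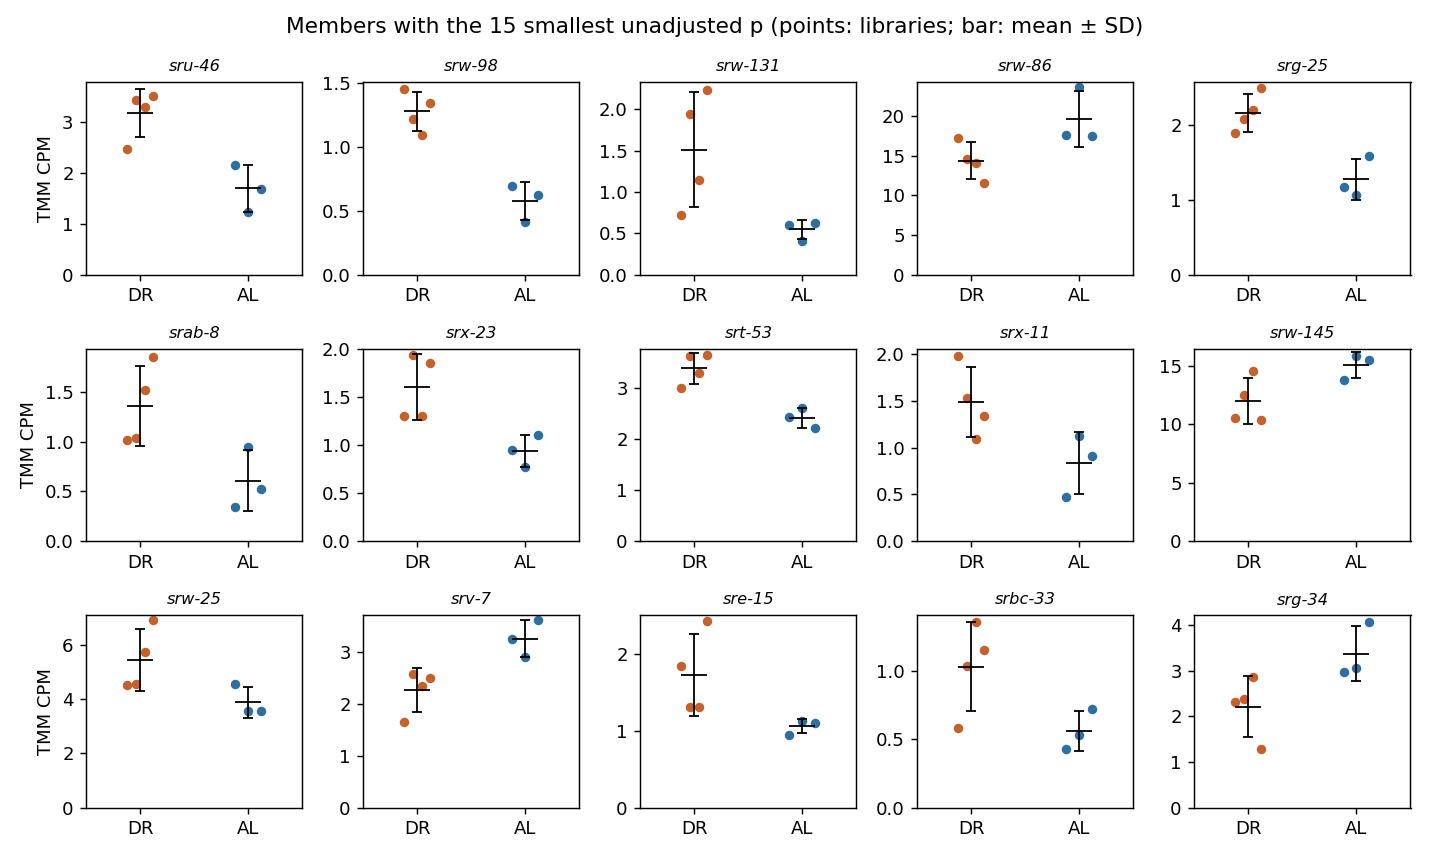
TMM-scaled CPM in each library (points, DR left and AL right) with mean and SD, for the 15 members with the smallest unadjusted p, in order of p from upper left. None of them passed the threshold after adjustment over all features; 11 were higher and 4 lower in DR progeny.

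The smallest unadjusted p belonged to sru-46 (C45H4.5), which the annotation used here lists as a pseudogene on chromosome V. It had 2.47, 3.43, 3.29 and 3.51 CPM in DR A to D, against 2.16, 1.24 and 1.68 CPM in AL A to C. The groups were fully apart, and the log2 fold change was 0.89 ± 0.25 (SE, adjusted p = 0.372, edgeR). The log2 fold change was 0.50 within BB1 and 1.26 within BB2.

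The receptor gene srw-98 (K04F1.3) had 1.45, 1.22, 1.1 and 1.34 CPM in DR A to D, against 0.692, 0.413 and 0.624 CPM in AL A to C, again without overlap. Its log2 fold change of 1.12 ± 0.32 (SE, adjusted p = 0.372, edgeR) rests on 135 counts in all. The pseudogene srw-131 (K12D9.13) differed most, by 1.43 ± 0.43 (SE, adjusted p = 0.374, edgeR), with 0.726, 1.94, 1.15 and 2.24 CPM in DR A to D, against 0.605, 0.413 and 0.624 CPM in AL A to C. The lowest DR library, DR A, was barely above the AL libraries. The other gene past a 2-fold difference was srab-8 (C36C5.2) of the Sra superfamily, at 1.36 ± 0.40 CPM in DR and 0.606 ± 0.31 CPM in AL progeny (log2 fold change 1.17, adjusted p = 0.376, edgeR). These 3 genes exceeded 1 CPM in no AL library, so that the level filter let them in through the DR libraries. Within BB1 and BB2 the log2 fold change was 0.86 and 1.35 for srw-98, 1.07 and 2.08 for srw-131, and 1.76 and 1.35 for srab-8.

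More RNA in DR progeny at an unadjusted p under 0.05 was also found for 7 other genes. The Srg superfamily genes srg-25 (2.16 ± 0.25 CPM in DR and 1.27 ± 0.28 CPM in AL progeny) and srx-23 (1.60 ± 0.34 CPM in DR and 0.941 ± 0.17 CPM in AL progeny) showed no overlap, with log2 fold changes of 0.76 and 0.75. The gene srt-53 stood at 3.00 to 3.64 CPM in DR and 2.21 to 2.60 CPM in AL libraries, without overlap (log2 fold change 0.49 ± 0.20, SE, adjusted p = 0.424, edgeR), and its value was 0.45 within BB1 and 0.61 within BB2. Its neighbour in the annotation is srsx-3, which is known to be active on one side only of the AWC pair of olfactory neurons and which had 1.98, 0.813, 0.522 and 1.60 CPM in DR A to D, against 0.994, 0.354 and 0.528 CPM in AL A to C. The groups of srsx-3 overlapped (log2 fold change 0.93 ± 0.50, SE, adjusted p = 0.526, edgeR), and its value was 0.16 within BB1 and 1.83 within BB2.
The remaining genes of this kind were the pseudogenes srx-11 (1.49 ± 0.38 CPM in DR and 0.836 ± 0.33 CPM in AL progeny) and srw-25 (5.43 ± 1.14 CPM in DR and 3.88 ± 0.57 CPM in AL progeny), sre-15 (1.72 ± 0.53 CPM in DR and 1.06 ± 0.094 CPM in AL progeny) and srbc-33 (1.03 ± 0.33 CPM in DR and 0.561 ± 0.15 CPM in AL progeny). Of these 4, sre-15 alone had no overlap between the groups, and srbc-33, like the 3 genes past a 2-fold difference, exceeded 1 CPM in no AL library. The log2 fold change of srx-11 was 1.68 within BB1 and 0.41 within BB2, and that of srw-25 was 0.12 and 0.97.

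All 4 members with less RNA in DR progeny at an unadjusted p under 0.05 lay above 2 CPM, whereas 8 of the 11 with more lay below it. Of all 85 members below 2 CPM, 8 were higher and 0 lower at that p. Of the 3016 features tested below 2 CPM, 108 were higher and 59 lower at it. For srw-86 (C25F9.7, chromosome V) there were 17.2, 14.6, 14.1 and 11.6 CPM in DR A to D, against 17.7, 23.7 and 17.5 CPM in AL A to C. The groups just failed to overlap, the highest DR library standing next to the lowest AL library, and the log2 fold change was −0.44 ± 0.15 (SE, adjusted p = 0.376, edgeR). Within BB1 it was −0.21 and within BB2 −0.82. The gene srw-145 had 12.0 ± 1.96 CPM in DR and 15 ± 1.09 CPM in AL progeny, with overlap through DR C (log2 fold change −0.33, adjusted p = 0.430, edgeR, and −0.14 within BB1 and −0.59 within BB2). The receptor genes srv-7 and srg-34 had no overlap, at 1.65 to 2.57 CPM in DR and 2.89 to 3.60 CPM in AL libraries for srv-7, and at 1.28 to 2.87 CPM in DR and 2.98 to 4.08 CPM in AL libraries for srg-34. Their log2 fold changes were −0.52 and −0.60. For srv-7 the value was −0.56 within BB1 and −0.38 within BB2. For srg-34 the value was −0.24 within BB1, −1.48 within BB2 and −0.27 in a fit that also held the rRNA share. Its lowest library, DR D, is also the one rich in rRNA, and the part of rRNA in its value was not tested. Other members moved in that fit too, srab-8 from 1.17 to 0.80, sre-15 from 0.69 to 0.34 and srw-145 from −0.33 to −0.24. The values of sru-46 (0.90), srw-98 (1.13) and srv-7 (−0.56) stayed close to those of the main fit.

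In the Sra superfamily 20 of 31 members had more RNA in DR progeny and 11 had less (median log2 fold change 0.09, 0.14 without AL C and 0.04 without DR C). Of all 54 tested genes of the superfamily, members or not, 35 were higher and 19 lower (median 0.095). Among the 14 tested sra genes 11 were higher and 3 lower. All 5 sra members were higher, by log2 values of 0.02 to 0.40, and their sum was 12.8 to 14.3 CPM in DR and 10.7 to 12.9 CPM in AL libraries. The most abundant were sra-37, at 5.43 ± 0.58 CPM in DR and 4.52 ± 0.77 CPM in AL progeny, and sra-10, at 3.34 ± 0.83 CPM in DR and 2.86 ± 0.13 CPM in AL progeny. The gene sra-6, whose promoter is a common tool for marking the nociceptive ASH neurons, stood at 1.96 ± 0.27 CPM in DR and 1.95 ± 0.47 CPM in AL progeny.

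Of the other Sra families, srab was led by srab-14 (7.57 ± 1.32 CPM in DR and 7.07 ± 1.22 CPM in AL progeny) and srab-12 (5.43 ± 0.73 CPM in DR and 4.63 ± 0.13 CPM in AL progeny). In the srb family srb-16 had 5.13 ± 0.28 CPM in DR and 4.8 ± 1.40 CPM in AL progeny, and srb-5 had 1.11 ± 0.54 CPM in DR and 1.14 ± 0.21 CPM in AL progeny. The sre family was the largest of the superfamily, with 16 members, and placed the highest share of its annotated genes among the members of any of the 14 families, 28.6%. Its leading genes sre-23 (4.41 ± 0.76 CPM in DR and 5.27 ± 1.42 CPM in AL progeny) and sre-4 (4.71 ± 0.76 CPM in DR and 4.33 ± 1.38 CPM in AL progeny) had values of opposite sign. For sre-1, which the deposited table describes as expressed in the amphid neurons ADL and ASJ, the values were 1.15 ± 0.25 CPM in DR and 0.866 ± 0.57 CPM in AL progeny. The groups overlapped for each of these genes.

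Members of the Srg superfamily were evenly split, with 28 higher and 30 lower in DR progeny (median −0.01, 0.08 without AL C and −0.09 without AL B). Of all 118 tested genes of the superfamily, members or not, 68 were higher and 50 lower (median 0.062). The even split thus holds for the members only. Among the srg genes, srg-19 and srg-49, both annotated as pseudogenes, led with 3.67 ± 0.34 and 3.43 ± 0.38 CPM in DR progeny, against 3.64 ± 1.01 and 3.66 ± 0.41 CPM in AL progeny. The gene srg-37, which encodes a receptor for a dauer pheromone component in ASI neurons, had 0.920, 2.12, 1.30 and 2.04 CPM in DR A to D, against 1.17, 0.945 and 2.54 CPM in AL A to C. Its groups overlapped fully (log2 fold change 0.03 ± 0.40, SE, and 0.31 within BB1 and 0.21 within BB2), and its exons share 82 bases with its paralogue srg-36, so that reads of the shared part cannot be assigned to either.

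In the other Srg families, srt was led by srt-47 (3.55 ± 0.76 CPM in DR and 3.57 ± 1.59 CPM in AL progeny) and srt-58 (3.22 ± 0.24 CPM in DR and 3.46 ± 0.56 CPM in AL progeny). The annotation used here gives the sequence of srt-58, C29G2.5, the name nhr-290, of a nuclear hormone receptor, so that this member is a chemoreceptor gene only by the name in the deposited table. In the sru family sru-40 had 6.76 ± 0.57 CPM in DR and 7.51 ± 0.41 CPM in AL progeny, the pseudogene sru-14 had 3.16 ± 0.78 CPM in DR and 2.20 ± 0.19 CPM in AL progeny, and sru-38 had 1.49 ± 0.31 CPM in DR and 1.22 ± 0.23 CPM in AL progeny. The srv genes srv-1 and srv-15 (5.30 ± 0.75 CPM in DR and 5.40 ± 0.75 CPM in AL progeny) and the srx genes srx-45 (9.32 ± 1.14 CPM in DR and 9.05 ± 1.11 CPM in AL progeny) and srx-68 (4.48 ± 1.52 CPM in DR and 4.05 ± 2.04 CPM in AL progeny) had overlapping groups. The lone srxa member, srxa-6, had 0.939 to 1.67 CPM in DR and 1.69 to 2.06 CPM in AL libraries, with no overlap and an adjusted p of 0.628 (edgeR).

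Of the 48 solo members 31 were higher and 17 lower in DR progeny (median 0.06, 0.19 without AL C and −0.01 without AL B). Of all 93 tested solo genes, members or not, 57 were higher and 36 lower (median 0.067). Members of the srw family split into 11 higher and 9 lower, and those of the srbc family into 6 and 1. Among all tested genes of these families, 20 srw genes were higher and 12 lower, and 12 srbc genes were higher and 5 lower. In the srsx family 11 of all 20 tested genes were higher and 9 lower, beside 51.6% higher among all features tested. Of its 11 members 8 were higher, among them srsx-19, at 4.35 ± 0.42 CPM in DR and 3.34 ± 0.54 CPM in AL progeny. Its most abundant gene, srsx-34, had 19 ± 1.24 CPM in DR and 19.4 ± 4.08 CPM in AL progeny, and the AL libraries alone spanned 15.9 to 23.9 CPM. The srz family, which is known for rapid sequence divergence between nematode species, was led by srz-10 (3.70 ± 1.39 CPM in DR and 3.58 ± 1.58 CPM in AL progeny) and srz-99 (2.13 ± 0.36 CPM in DR and 2.45 ± 0.43 CPM in AL progeny).

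The srbc genes srbc-60 (3.59 ± 1.02 CPM in DR and 3.05 ± 1.02 CPM in AL progeny) and srbc-20 (2.37 ± 0.83 CPM in DR and 2.77 ± 0.71 CPM in AL progeny) were the highest of their family. Its best known member is srbc-66, which together with srbc-64 detects dauer pheromone in ASK neurons according to the deposited table. It stood at 0.774, 0.993, 0.939 and 1.21 CPM in DR A to D, against 1.04, 0.650 and 0.240 CPM in AL A to C. The groups overlapped through AL A (log2 fold change 0.58 ± 0.44, SE, adjusted p = 0.642, edgeR). Its direction turned between the prefixes, at −0.20 within BB1 and 1.48 within BB2, and the gene rests on 115 counts in all.

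**Figure D5:**
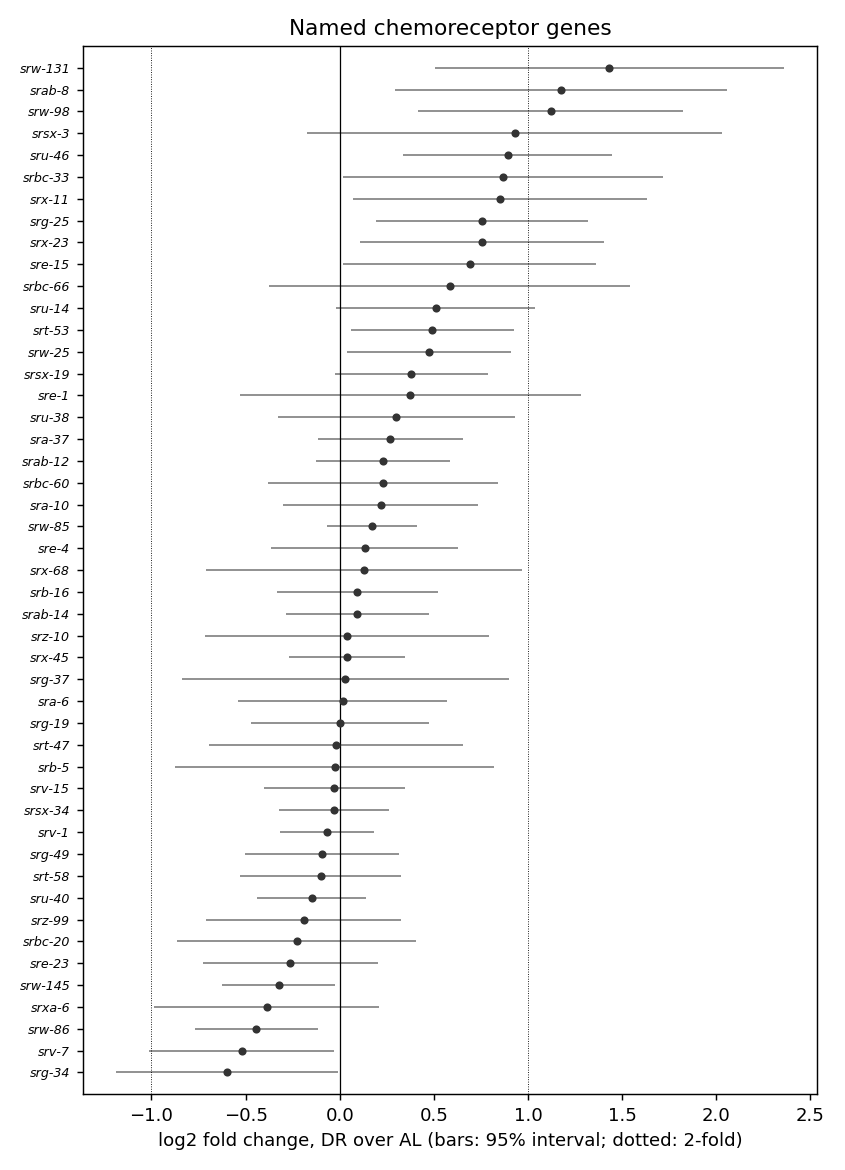
Log2 fold change (DR over AL) with its 95% interval from the edgeR quasi-likelihood fit for the 47 members named by rule, in order of value, with dotted lines at a 2-fold difference in either direction. Intervals of the abundant genes srw-85, srv-1 and srsx-34 are narrow and include 0, whereas those of genes near 1 CPM span more than 1 log2 unit.

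Several receptors with a published role were too low to be members. Over all 7 libraries there were 14 counts for srbc-64, 8 for srg-36, 22 for srx-43 and 20 for srx-44, a pair of receptor genes known from work on pheromone-dependent foraging. The gene srb-6, for a receptor of a noxious fatty acid, had 35 counts, srg-2 and srg-8, markers of ASK neurons, had 54 and 36, and sra-13 had 3. There were 11 counts for srxa-7 and 6 for srz-1. The ASK genes sra-7 and sra-9 (103 and 130 counts), the AIY interneuron gene sra-11 (107 counts), srb-13 (53 counts) and srsx-18 (69 counts) passed the test's own filter. Of these, sra-11 had 0.611 CPM in DR and 0.983 CPM in AL progeny (log2 fold change −0.69, adjusted p = 0.499, edgeR). At these depths a difference in the lowest genes was not detectable.

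How well a member could be measured followed its count. The SD within groups was 0.35 on the log2 scale at the median, where counting alone would give 0.27, and it exceeded the counting value in 111 of 137 members. The biological coefficient of variation had a median of 0.253 for members and 0.146 for all features tested. These medians stand at unlike levels, 1.44 CPM for members and 11.5 CPM for all features. Features at the members' level were not compared, so greater variation of receptor genes cannot be read from them. The 95% interval of the log2 fold change reached 0.67 to either side at the median, a factor of 1.59, against 0.33 for all features. It reached 0.31 for members above 5 CPM and 0.74 for those below 2 CPM. For 89 members the interval lay wholly within a 2-fold difference in either direction, and for the other 48 it did not.

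Of the 19 members that the annotation used here lists as pseudogenes, 16 had more RNA in DR progeny and 3 had less, with a median log2 fold change of 0.18. Of the 118 protein-coding members 63 were higher and 55 lower (median 0.03). The split of the pseudogenes was 12 and 7 without DR D, 14 and 5 without AL A or without DR C, and 13 and 6 without AL B. Their median was 0.10 without DR A, 0.11 without AL A or without AL B, and 0.29 without AL C. In the same families, 10 of 15 tested pseudogenes that were not members were higher. Outside the families 274 of 474 tested pseudogenes were higher, at a median of 0.07. This grouping was chosen after the values were seen, and no test was made of it.

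Members were unevenly placed in the genome. The largest group, 72 genes or 52.6%, lies on chromosome V, which holds 574 of the 897 family genes and 21.9% of the features tested that have a position. Chromosome IV holds 30 members, II holds 20, I holds 7, and III and X hold 4 each. Of the members 74 have another gene of the 14 families as their immediate neighbour in the WBcel235 annotation, and 25 of them lie next to another member, in 12 runs. The log2 fold changes had the same sign throughout 8 of these runs, such as srw-16 and srw-17 (−0.33 and −0.27) or srw-92 and srw-93 (0.17 and 0.05), and both signs in 4, such as sre-15 and sre-19 (0.69 and −0.10). Of the 12 runs 11 hold only 2 members. The share of equal signs among other pairs of genes was not computed, so no shared change of neighbours can be read from these counts. The median exon length of the members was 1061 bases and that of all features tested 1359 bases, and both had a median of 6 exons. Exons of 37 members overlap another annotated gene, 29 of them on the opposite strand, among these srv-7, srv-15, srv-32, sra-10, srb-5, sre-4, sre-23 and srbc-20. The 100 members without such overlap had 61 higher and 39 lower genes in DR progeny, with a median of 0.06. Tandem copies can be similar enough for reads to be lost or split between them, which could not be examined from the counts.

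Genes that carry a receptor's signal were examined beside the receptors. Of 50 tested genes for receptor trafficking and signalling, 25 were higher and 25 lower in DR progeny (median 0.00), none passed the edgeR test, and 1 was higher and 4 were lower at an unadjusted p under 0.05, where 5.39% and 5.35% of all features were. The 4 with the smallest p were egl-10, a regulator of G protein signalling (29 ± 5.0 CPM in DR and 38.9 ± 3.20 CPM in AL progeny), tax-2, a subunit of the cyclic nucleotide-gated channel (5.87 ± 1.45 CPM in DR and 3.76 ± 0.50 CPM in AL progeny), the G protein alpha subunit gene gpa-17 (50.2 ± 5.22 CPM in DR and 61.6 ± 5.75 CPM in AL progeny) and osm-9, a TRPV channel (15.8 ± 2.64 CPM in DR and 20.4 ± 0.83 CPM in AL progeny). Their adjusted p lay between 0.374 and 0.384 (edgeR). The groups did not overlap for egl-10 and osm-9 and overlapped for tax-2 and gpa-17. These 4 were picked by their p, which favours separated groups, and 11.9% of all features tested had no overlap.

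Regulators of chemoreceptor and sensory neuron genes gave 18 higher and 23 lower of 41 tested genes (median −0.03), with none past the test and 1 higher and 5 lower at an unadjusted p under 0.05, against the same background. The smallest p values belonged to fozi-1, nsy-1, mef-2 and unc-42. The zinc finger transcription factor gene fozi-1 had 8.81 ± 0.18 CPM in DR and 12.0 ± 0.70 CPM in AL progeny. For nsy-1, the MAP kinase kinase kinase of AWC asymmetry, there were 136 ± 8.51 CPM in DR and 172 ± 10.5 CPM in AL progeny. Like the kinase gene kin-29, mef-2 is known to regulate chemoreceptor expression, and it had 32.8 ± 3.85 CPM in DR and 42.6 ± 1.94 CPM in AL progeny. The homeobox gene unc-42 had 14.9 ± 0.38 CPM in DR and 11.5 ± 1.24 CPM in AL progeny. The groups did not overlap for any of the 4, and their adjusted p lay between 0.371 and 0.374 (edgeR). Genes picked by their p tend to have separated groups, and 11.9% of all features tested had no overlap.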

How the data were processed

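Alignment was by Bowtie 1.1.2 and counting by HTSeq, and the authors used edgeR, per the submitters' processing notes. Other versions, the genome build and the annotation are not stated there. Per the labels' protocols, poly(A) libraries were amplified by 12 PCR cycles with a kit that loses strand. The deposited count files hold 1 raw count per feature for 44968 features. The deposited workbook gives the authors' CPM per library and, for each gene, a log2 fold change, a p-value and an FDR from an exact test. Summary lines (22.2% to 24.0% of reads) were left out.

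Names, chromosomes and exon lengths came from Ensembl release 115 (WBcel235) and RefSeq, and all 137 members matched. Counts of all features were fitted in R 4.3.3 with edgeR 4.0.16 (TMM, filterByExpr, robust quasi-likelihood F-test, two-sided, DR over AL). Benjamini-Hochberg adjustment covered all 14867 features tested. Levels are TMM-scaled CPM. Alternatives used DESeq2 1.42.0, limma 3.58.1 and other settings. The fit was tested on simulated data.

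The members, lists and tests were chosen with earlier results of these data known. Named members were those past the threshold (none), the 15 with the smallest p, the 10 most abundant, the 2 most abundant per family and a fixed list of receptors, 12 of 27 being members. Any other member named was picked with its values known. Nothing says that the libraries came from separate cultures beyond the words biological replicates, so p-values measure the spread between these libraries.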

Additional observations from a re-analysis of the deposited data

Results flagged for a closer look

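Among the 47 members named by rule, no DR library lay apart from the other 3 by Dixon's criterion at the 95% level, which chance meets in about 1 of 20 groups. Of 41 other values per library, 7 did. Library DR C was high in vit-2, at 290.4 CPM, and in the summed level of germline and embryo markers, at 824 CPM. It was low in the summed level of the receptor signalling and trafficking genes, at 2291 CPM, and of the regulators of chemoreceptor genes, at 2232.5 CPM, whose centred median was −0.17 there. Library DR D was high in ribosomal RNA, at 22.5% of counts, and low in the centred median of intestine markers, at −0.24. The part of these libraries in the receptor values was not tested beyond leaving each of them out.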

How the results depend on the processing

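No member passed the threshold under any alternative with more than 1 library in each group, among them an adjusted p under 0.1 in the main fit. The smallest adjusted p of a member was 0.0988, for srw-131 with no filter beyond 1 read (edgeR). That fit called 27 of all 25575 features higher and 50 lower. Of all 14867 features, DESeq2 called 16 higher and 25 lower, and the exact test 10 and 14. The other such fits called at most 2 features in either direction. The median log2 fold change of the members, 0.05, stayed between 0.00 and 0.11 under other normalisations, filters, tests and covariates and within both prefixes, and was −0.01 when DR C and DR D were both left out. With 1 library left out it ranged from −0.05 (−0.046, without AL B) to 0.13 (without AL C). The number of members whose groups did not overlap, 14 (10.2%, beside 11.9% of all features), was 1 with CPM above 5 in 3 libraries, which leaves 15 members (6.67%, beside 13.8%). With library size only, 9 higher and 7 lower members had no overlap (11.7%, beside 10.3% of all features). With the length trend removed there were also 9 and 7 (11.7%, beside 11.7%), and with upper-quartile normalisation 9 and 4 (9.49%, beside 11.8%). With no filter beyond 1 read the number was 14 again (10.2%, beside 7.99%). The number without overlap was 75 within the prefix BB1 (54.7%, beside 49.1% of all features) and 99 within BB2 (72.3%, beside 77.8%). It was 33 when DR C and DR D were both left out (24.1%, beside 24.9%) and 18 to 27 with 1 library left out (13.1% to 19.7%, beside 14.4% to 21.8%). All of these have fewer libraries to separate. It was not recomputed for the DESeq2, limma-voom and exact tests, which use the same levels. With a replicate block the median was 0.04, 0 members passed, and 5 members were higher and 3 lower at an unadjusted p under 0.05. With the rRNA share as a covariate the median was 0.05, 0 members passed, and 4 were higher and 1 lower at that p (edgeR). The share of all features at that p was not taken for either fit. Deviations of same-lettered libraries from their group means correlated at 0.20 (A), 0.27 (B) and −0.10 (C). For libraries of different letters and groups these correlations ran from −0.46 to 0.25. So few values cannot decide whether the replicate letters pair libraries. Of 1142 values of named members under alternatives, 91 had the other sign, and of 345 family medians 55 had. Counts near 1 CPM limit most members.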
